A study of Mus musculus with 6 samples.

Results

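The leukocyte integrins are 10 genes that encode the main adhesion receptor subunits of blood cells: Itgb2, Itgam, Itgal and Itgax of the β2 family, Itgb1, Itga4, Itga5 and Itga6 of the β1 family, and Itgb7 and Itgae of the β7 family. They were chosen by name, with no measured value in the rule, but with earlier results of these data known. They were found in the table by matching each Ensembl identifier to its mouse symbol. These are 10 of the 55487 genes listed, and all 10 were among the 15020 genes tested, those whose normalized counts averaged 10 or more over the 6 libraries. Each of the 10 also had a mean of at least 10 in each group, so that none was tested through its higher group alone.

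RNA-seq was carried out on GFP+ cells from the femora and tibiae of mice that had received MLL-AF9 leukemia cells (labelled MA9), the fusion oncogene in this model of acute myeloid leukemia. Donor cells were CD45.2(+), of the genotype Mx1-Cre Brd9fl/fl MA9, and recipients were CD45.1(+) CD45.2(-), all on the C57BL/6 strain. After irradiation with 2 doses of 450 cGy and transplantation, 3 samples were labelled PBS and 3 were labelled pIpC (a synthetic double-stranded RNA that sets off an interferon response, in 3 injections at 20 mg/kg), and cells were collected 10 days after the injections. The comparison asks what follows in transplanted leukemia cells when Brd9, a bromodomain subunit of a chromatin remodelling complex, is deleted. Both groups carried Mx1-Cre and the floxed allele, and Cre is driven by the interferon-inducible Mx1 promoter. There was no group that received pIpC without Cre, so an effect of pIpC itself and an effect of the deletion cannot be told apart. The number of donor leukemias behind the 6 samples is not given. Recipients in this transplant model were 6 weeks old by the methods of the study, which also describe c-Kit+ cells, stranded libraries and sublethal irradiation, whereas the labels describe GFP+ cells, unstranded libraries and lethal irradiation.

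Integrins are receptors made of an α and a β subunit that span the membrane and tie the cell to its matrix or to another cell. They sit bent and inactive until talin and kindlin bind the tail of the β subunit inside the cell, after which they hold ligand and recruit kinases and actin linkers. The β2 integrins serve firm adhesion, migration and phagocytosis of myeloid cells and lymphocytes, the β1 integrins hold stem and progenitor cells to the fibronectin, laminin and VCAM1 of the marrow, and the β7 integrins guide lymphocytes and mast cell progenitors to mucosa.

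Between 19277439 and 22378154 reads on genes were recovered from a PBS library and between 22348517 and 23586722 from a library labelled pIpC. PBS replicate 3 stood apart from the other PBS libraries, with a chi-square statistic per gene of 171 to 194 against them and of 6.3 between those 2. The targeted gene, Brd9, stood at 1835 ± 176.2 normalized counts (SD, n = 3) in PBS and 2103 ± 138.7 in the libraries labelled pIpC (limma adjusted p = 0.259), so that its count, which covers the whole gene and not the deleted exons, did not show the deletion. The groups differed widely: 6808 of the 15020 genes (45.3%) passed an adjusted p under 0.1 by limma, 25.0% higher and 20.4% lower in pIpC, and the groups did not overlap for 56.8%. Of these calls 55.1% were higher in pIpC, against 44.3% after quantile normalization, which moved the median difference of all genes from 0.015 to -0.12 on the log2 scale. Several marker genes averaged 10 or more in pIpC alone, so that they were tested only through the group in which they are high, and their calls are no support. Genes of leukemia stem and progenitor cells had a summed normalized count of 24940 to 27540 in PBS and 9575 to 9867 in pIpC. Of the 8, 6 were lower (Hoxa9 and Meis1 among them) and Kit was not called (limma adjusted p = 0.213). The 1 higher, Mef2c, was tested through pIpC alone, at a mean of 5.531 in PBS and 1086 in pIpC. Erythroid markers were higher for 10 of 10 genes, 7 of them tested through pIpC alone (summed count 1862 to 3083 in PBS, 6710 to 8573 in pIpC), with Hbb-bs, Epor and Slc4a1 among those at 3 reads or fewer in every PBS library. B cell markers were higher for 10 of 10, 8 of them through pIpC alone (137.7 to 306.7, against 1536 to 2857), with Ms4a1, Pax5 and Rag1 among those at that floor in PBS. Eosinophil markers were higher for 3 and lower for 1 of 6 tested, 1 of the 6 through pIpC alone (8579 to 14378, against 4732 to 5377), with Ccr3 at the floor in PBS. In bulk RNA a change in the number of cells of a type and a change in RNA per cell cannot be told apart.

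Of the 10 leukocyte integrins, 6 were higher (Itgb2, Itgam, Itgal, Itgax, Itga6 and Itgae), 1 was lower (Itga5) and 3 did not pass the test (Itgb1, Itga4 and Itgb7) in the libraries labelled pIpC. The shares among all tested genes were 25.0% higher and 20.4% lower. The median difference of the 10 genes was 1.18 on the log2 scale, beside 0.015 for all tested genes, and the PBS and pIpC values did not overlap for 7 of the 10, beside 56.8% of all tested genes. The 4 genes of the β2 family were among the 6 that were higher, whereas the common β1 chain and the common β7 chain did not pass the test.

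**Figure D1:**
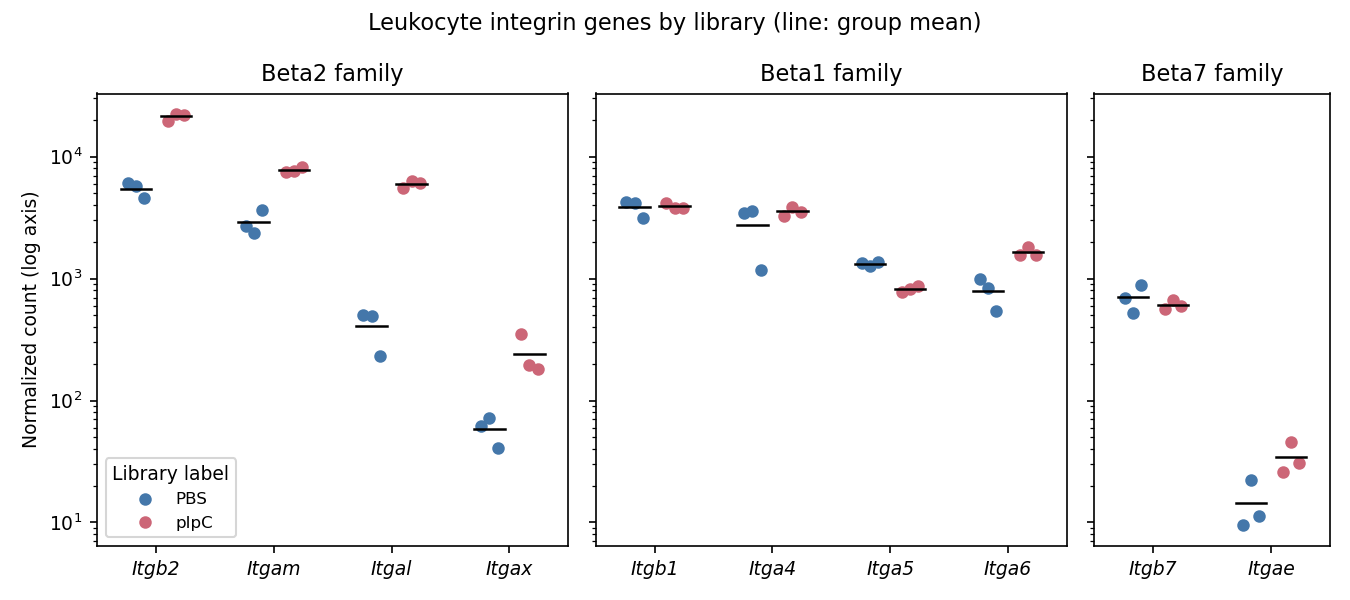
Normalized count of each leukocyte integrin (log axis) in the 3 PBS and 3 pIpC libraries, grouped by β family. Each point is 1 library and each line the group mean. The 4 genes of the β2 family lie higher in every pIpC library than in any PBS library, Itga5 lies lower, and Itgb1, Itga4 and Itgb7 overlap.

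Itgb2 encodes CD18, the β chain shared by all β2 integrins. It lies on chromosome 10 of GRCm38 from 77530252 to 77565708 (16 exons). The libraries held normalized counts of 6031, 5759 and 4586 in PBS and 19774, 22363 and 22099 in pIpC. It was the most counted of the 10 genes in each library, and every pIpC library stood well above every PBS library. The means were 5458 ± 768.1 (SD, n = 3) and 21412 ± 1425, a ratio of 3.92. The log2 difference was 1.98 (SE 0.155, adjusted p = 0.000141 by limma), and between 1.86 and 2.06 when any library was left out.

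Itgam encodes CD11b, the α chain of the complement receptor Mac-1 and a surface marker of neutrophils, monocytes and macrophages. The gene lies on chromosome 7 from 128062640 to 128118491. Its normalized count was 2682, 2361 and 3663 in PBS and 7549, 7630 and 8216 in pIpC. All pIpC libraries were higher than all PBS libraries, and PBS replicate 3, the lowest PBS library for Itgb2, was the highest for Itgam. The means of 2902 ± 678.2 and 7798 ± 363.6 stood at a ratio of 2.69, with a log2 difference of 1.45 (SE 0.181, adjusted p = 0.00103). Only 31.3% of the exon bases of Itgam belong to no other gene: Gm49368, annotated on the same strand, holds 66.3% of its 50-base words. The table gives Gm49368 a mean of 0.67 in PBS and 14.2 in pIpC, and how reads that fit both genes were assigned is not given in the sources used here.

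Itgal encodes CD11a, the α chain of LFA-1, which binds ICAM proteins and serves the arrest of lymphocytes and neutrophils on endothelium. It had the highest ratio of the 10 genes. Normalized counts were 507, 497 and 232 in PBS and 5487, 6368 and 6096 in pIpC (chromosome 7, 127296260 to 127335138). Every pIpC library stood far above every PBS library, and PBS replicate 3 was lowest. The means were 412 ± 156 and 5984 ± 451, a ratio of 14.5, and the log2 difference was 3.94 (SE 0.306, adjusted p = 0.000138).

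Itgax encodes CD11c, widely used as a marker of dendritic cells and also made by macrophages and some other myeloid cells. Counts of 61.43, 71.87 and 40.74 (normalized) were found in PBS and 348.3, 194.1 and 181.8 in pIpC (chromosome 7, 128129547 to 128150657). The groups did not overlap, and pIpC replicate 1 stood well above the other pIpC libraries. The means were 58.01 ± 15.84 and 241.4 ± 92.79, a ratio of 4.16, with a log2 difference of 2.01 (SE 0.340, adjusted p = 0.00398). Of its 50-base words, 8.02% also occur in another gene, its neighbour Itgad.

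Most tested markers of the cells that carry β2 integrins were higher in pIpC, but not all. Neutrophil markers (Ly6g, S100a8, Camp, Ltf and others) were higher for 13 of 15 genes, and Elane and Prtn3 were not called. The summed normalized count of the 15 was 102899 to 221048 in PBS and 2260085 to 2347437 in pIpC, and none was at the floor. Macrophage and monocyte markers were higher for 10 and lower for 3 of 14 genes, beside 25.0% and 20.4% of all tested genes. The 3 lower were Adgre1 (mean 4307 in PBS and 309.5 in pIpC), Cd68 and Vcam1. Of the 14, 2 were tested through pIpC alone, and the sum was 39522 to 39787 in PBS and 45910 to 49555 in pIpC. Dendritic cell markers were higher for 11 of 11 tested, 6 of them through pIpC alone, at a sum of 3181 to 3713 in PBS and 7677 to 9321 in pIpC, with Siglech, Cd209a and Ccr7 at the floor in PBS. Their part in the β2 integrin values was not tested.

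The make-up of the β2 family differed between the groups. For this, counts were divided by the length of each gene's exons, and each α gene was expressed as a share of the sum of Itgam, Itgal, Itgax and Itgad, the α partners of Itgb2. Itgam took 85.1%, 83.2% and 94.3% of this sum in the PBS libraries and 61.7%, 59.4% and 61.7% in the pIpC libraries. The mean share was 87.5% ± 5.93 and 60.9% ± 1.34, so that it fell by 26.6 percentage points with no overlap (exact permutation test, 2-sided, p = 0.1, the smallest that 3 against 3 allows). The share of Itgal was larger in pIpC, at 12.3%, 13.4% and 4.57% in PBS and 34.3%, 37.9% and 35% in pIpC (difference 25.6 points, exact p = 0.1). Itgax held 1.93% ± 0.782 and 1.99% ± 0.853 (exact p = 1), a share that overlapped although its count was higher in pIpC. Itgad held 0.477% ± 0.364 and 1.38% ± 0.431 (exact p = 0.1). With only the exon bases that belong to a single gene as the length, the share of Itgam was 95.6% ± 2.21 in PBS and 83.1% ± 0.775 in pIpC, a smaller difference of -12.5 points in the same direction. Itgal was then 3.51% ± 1.76 and 15.3% ± 1.01 of the sum.

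The ratio of the common chain to its α partners did not differ in this way. Itgb2 stood at 3.15, 3.34 and 1.94 times the per-kilobase sum of its α genes in PBS and at 2.66, 2.86 and 2.73 times in pIpC. The means were 2.81 ± 0.758 and 2.75 ± 0.104 (exact permutation p = 1), with PBS replicate 3 below the other libraries. With unshared exon bases the ratio was 0.971 ± 0.296 in PBS and 1.18 ± 0.059 in pIpC (exact p = 0.3).

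**Figure D2:**
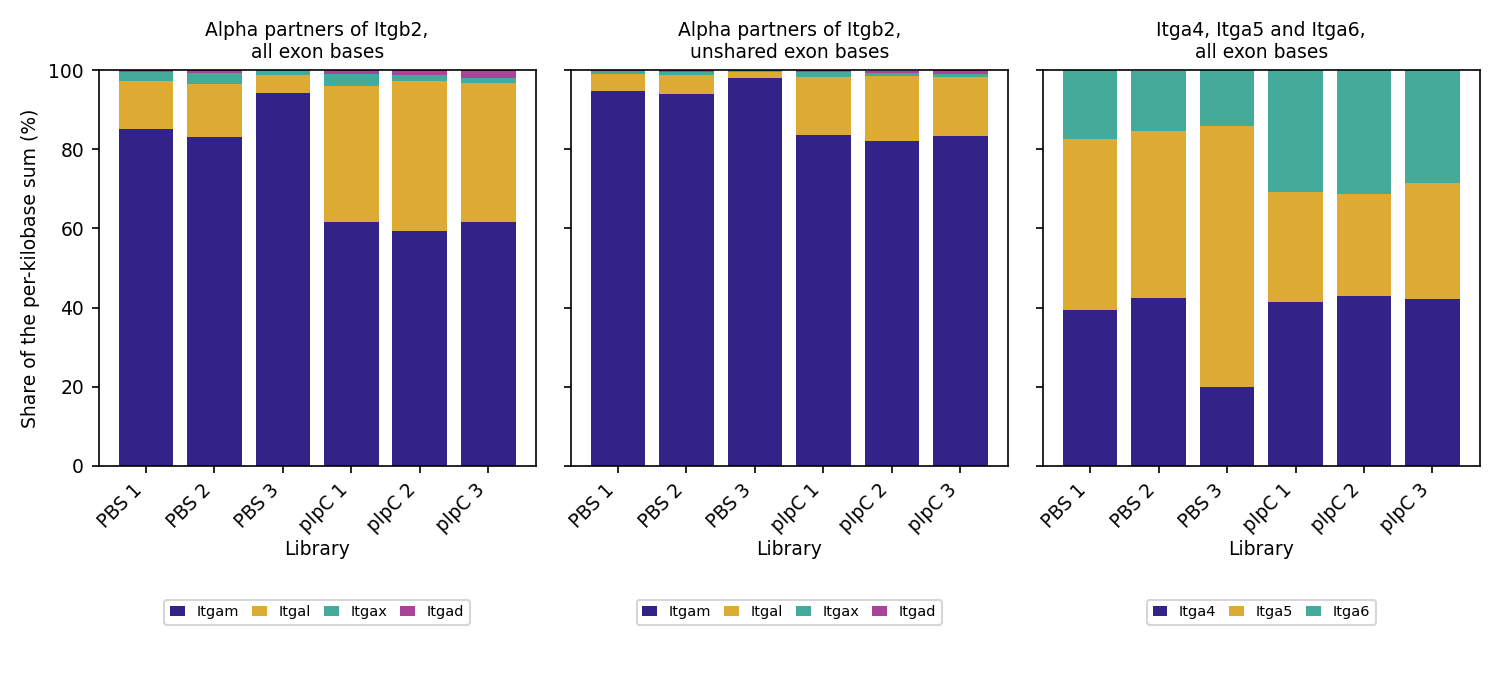
Share of each α gene in the per-kilobase sum of its group (%), 1 bar per library: the α partners of Itgb2 by all exon bases (left) and by unshared exon bases (middle), and Itga4, Itga5 and Itga6 (right). The share of Itgal is larger in every pIpC library than in any PBS library, and PBS replicate 3 has the smallest share of Itga4 at 19.9%.

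The α genes of the β2 family lie on chromosome 7, with Itgam, Itgax and Itgad close together and Itgal farther away. Itgam and Itgax are 11055 bases apart, with 1 gene and 0 protein-coding genes between them, and Itgax and Itgad are 3718 bases apart with no gene between. Itgal lies 727501 bases from Itgam, with 62 genes between, 38 of them protein-coding. The log2 differences were 1.45 for Itgam, 2.01 for Itgax and 3.86 for Itgad, the close neighbours, and 3.94 for the more distant Itgal, with no test between the genes.

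RefSeq promoter sequences (GRCm38.p6) were found for 6 of the 10 genes: Itgam, Itgax, Itga4, Itga5, Itgb1 and Itgb7. Up to 250 bases before the start (247 for Itgax and 241 for Itgb7) were searched on both strands for GAGGAA, reverse complement TTCCTC, the purine-rich core bound by the myeloid factor PU.1. The motif was present in 3 of the 6 (Itgam, Itga5 and Itgb1) and in 23.3% of all 32851 promoters. Of these, 3 are printed 5′ to 3′ on the gene's strand with matches in capitals: Itgam, with a match on each strand 84 and 15 bases before the start, its neighbour Itgax, which was also higher in pIpC and has no match, and Itga5, which was lower in pIpC and has 1 match on the reverse strand 127 bases before the start. They cover chr7:128062390-128062639 (plus strand), chr7:128129300-128129546 (plus strand) and chr15:103366792-103367041 (minus strand).
Itgam: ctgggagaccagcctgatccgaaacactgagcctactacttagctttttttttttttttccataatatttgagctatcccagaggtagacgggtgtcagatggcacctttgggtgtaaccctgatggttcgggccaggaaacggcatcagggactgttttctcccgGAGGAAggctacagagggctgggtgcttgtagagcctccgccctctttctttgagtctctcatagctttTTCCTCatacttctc
Itgax: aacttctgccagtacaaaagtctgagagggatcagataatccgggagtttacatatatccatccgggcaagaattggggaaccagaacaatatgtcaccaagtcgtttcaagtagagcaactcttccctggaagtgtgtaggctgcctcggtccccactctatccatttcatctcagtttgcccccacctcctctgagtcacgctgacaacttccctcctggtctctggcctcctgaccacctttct
Itga5: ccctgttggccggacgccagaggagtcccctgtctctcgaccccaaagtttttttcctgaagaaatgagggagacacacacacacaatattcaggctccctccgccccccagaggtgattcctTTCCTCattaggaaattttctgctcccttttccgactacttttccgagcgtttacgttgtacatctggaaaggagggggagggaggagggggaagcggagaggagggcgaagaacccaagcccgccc
In Itgb1 the match begins 9 bases before the start. A match is a run of letters and not a measured binding site. Of the 3 genes with a match, Itgam was higher in pIpC, Itga5 was lower and Itgb1 did not pass the test.

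Itgb1 encodes CD29, the β chain with the most α partners, and it did not pass the test. Its normalized count was 4216, 4157 and 3139 in PBS and 4140, 3808 and 3788 in pIpC (chromosome 8, 128685654 to 128733200). The groups overlapped, with PBS replicate 3 lowest. The means were 3837 ± 605.4 and 3912 ± 197.8, and the log2 difference was 0.04 (95% interval -0.32 to 0.40, adjusted p = 0.856), an interval that holds both a decrease and an increase. Its sign was negative after quantile normalization (-0.087), without PBS replicate 3 (-0.099) and without pIpC replicate 1 (-0.002).

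Itga4 encodes CD49d, which pairs with Itgb1 as VLA-4 and with Itgb7 and binds VCAM1 and fibronectin. Its normalized count was 3479, 3580 and 1168 in PBS and 3281, 3877 and 3549 in pIpC (chromosome 2, 79255426 to 79333123). A single PBS library, replicate 3, was low, and the other PBS libraries lay within the pIpC range. The log2 difference was 0.54 (SE 0.425, 95% interval -0.47 to 1.56, adjusted p = 0.353) and was 0.01 without PBS replicate 3.

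Itga5 encodes CD49e, the α chain of the classical fibronectin receptor, and was the only one of the 10 genes called lower. Its 3 PBS libraries held 1345, 1263 and 1368 normalized counts and its pIpC libraries 781.5, 825.5 and 867.4 (chromosome 15, 103344286 to 103366763). The libraries of each group lay close together and the groups did not overlap. The PBS mean of 1326 ± 55.22 was 1.61 times the pIpC mean of 824.8 ± 42.96, with a log2 difference of -0.68 (SE 0.114, adjusted p = 0.00373).

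Itga6 encodes CD49f, an α chain of laminin receptors that is found on stem cells and platelets. Its normalized count was 984.6, 838.1 and 540.9 in PBS and 1572, 1822 and 1554 in pIpC (chromosome 2, 71745616 to 71858416). All pIpC libraries were higher than all PBS libraries. The means were 787.9 ± 226.1 and 1649 ± 149.6, a ratio of 2.09, with a log2 difference of 1.10 (SE 0.231, adjusted p = 0.0099). Megakaryocyte and platelet markers, whose cells use laminin and collagen receptors, were higher for 8 of 8 tested, 5 of them through pIpC alone (summed normalized count 71.29 to 86.52 in PBS and 1086 to 1671 in pIpC), with Ppbp, Gp1bb, Gp5 and Gp6 among those at the floor in PBS and Gp1bb in pIpC also. The shares of all tested genes were 25.0% higher and 20.4% lower. The part of megakaryocytes and platelets in the count of Itga6 was not tested.

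The balance of these 3 α partners of Itgb1 also differed between the groups, away from Itga5 and toward Itga6. By count per kilobase, Itga5 took 43.2%, 42.3% and 65.9% of the sum of Itga4, Itga5 and Itga6 in PBS and 27.9%, 25.9% and 29.2% in pIpC (difference -22.8 points, exact permutation p = 0.1). Itga6 took 17.3%, 15.3% and 14.2% in PBS and 30.7%, 31.2% and 28.6% in pIpC (difference 14.5 points, exact p = 0.1). Neither share overlapped between groups. Itga4 took 39.5%, 42.3% and 19.9% in PBS and 41.4%, 42.9% and 42.2% in pIpC, a difference of 8.27 points (exact p = 0.3) that was 1.26 without PBS replicate 3. Itgb1 itself stood at 1.72 ± 0.0991 times this sum in PBS and 1.59 ± 0.178 times in pIpC (exact p = 0.4).

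Itgb7 encodes the β chain of the gut-homing receptor, which pairs with Itga4 to bind MAdCAM1. Normalized counts of 700, 525.3 and 882.7 in PBS stood against 566.9, 663.1 and 596.6 in pIpC (chromosome 15, 102215995 to 102231944). The PBS libraries spanned the whole pIpC range. The means were 702.7 ± 178.7 and 608.9 ± 49.24, and the log2 difference was -0.18 (95% interval -0.67 to 0.32, adjusted p = 0.531). Without PBS replicate 3 it was 0.003. Its share of the sum of Itgb1 and Itgb7 per kilobase, the β partners of Itga4, was 19.7%, 15.7% and 29.3% in PBS and 16.8%, 20.4% and 18.8% in pIpC (difference -2.87 points, exact permutation p = 0.8). That difference was 1.01 points in the other direction without PBS replicate 3.

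Itgae encodes CD103, which pairs with Itgb7 to bind E-cadherin on epithelium and marks tissue-resident T cells and some dendritic cells. It was the least counted of the 10 genes, at 10 to 45 reads in a library. Its normalized count was 9.517, 22.27 and 11.32 in PBS and 25.95, 45.98 and 30.94 in pIpC (chromosome 11, 73090583 to 73147446). The groups did not overlap, but the highest PBS library was near the lowest pIpC library. The log2 difference was 1.25 (SE 0.418, adjusted p = 0.0567), and the call was lost without PBS replicate 1 (adjusted p = 0.132), pIpC replicate 2 (0.187) or pIpC replicate 3 (0.133) and after quantile normalization (0.189). Haspin, at a mean of 561.1 in PBS and 753.9 in pIpC, lies inside Itgae on the other strand without sharing exon bases, and whether reads were assigned by strand is not settled by the sources used here, since the labels describe unstranded and the methods stranded libraries. T and NK cell markers were higher for 6 of 6 tested, 5 of them through pIpC alone (summed count 188.3 to 320.3 in PBS and 3945 to 4575 in pIpC), with Cd3e, Cd3g, Cd8a, Trac and Ncr1 at the floor in PBS. Nkg7, a granule gene of cytotoxic lymphocytes, made up most of that sum, at a mean of 209.9 in PBS and 4023 in pIpC. Basophil and mast cell markers were higher for 4 and lower for 1 of 7 tested, 2 of the 7 through pIpC alone (2115 to 3544 in PBS and 5040 to 7304 in pIpC), with Prss34, Fcer1a, Tpsb2 and Cma1 at the floor in PBS and Tpsb2 and Cma1 in pIpC also. Over all tested genes the shares were 25.0% higher and 20.4% lower. The part of T, NK, basophil and mast cells in the counts of Itgae and Itgb7 was not tested.

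Per kilobase of exon, the genes fell in a different order in each group. In PBS the level was highest for Itgb2 (1788 ± 252 normalized counts per kilobase), followed by Itgb1 (940 ± 148), Itgam (578 ± 135), Itga5 (269 ± 11.2), Itgb7 (254 ± 64.5), Itga4 (196 ± 97.6), Itga6 (87.3 ± 25), Itgal (62.7 ± 23.7), Itgax (12.1 ± 3.3) and Itgae (3.14 ± 1.51). Each gene from Itga5 to Itga6 overlapped the next in this order, and Itgal did not overlap Itgax. In pIpC the level was again highest for Itgb2 (7016 ± 467), then Itgam (1552 ± 72.4), Itgb1 (959 ± 48.5), Itgal (911 ± 68.7), Itga4 (255 ± 21.4), Itgb7 (220 ± 17.8), Itga6 (183 ± 16.6), Itga5 (167 ± 8.71), Itgax (50.3 ± 19.3) and Itgae (7.49 ± 2.28). The neighbours Itgb1 and Itgal, Itga4 and Itgb7, and Itga6 and Itga5 overlapped there. Itgal went from place 8 in PBS to place 4 in pIpC, and Itga5 from place 4 to place 8. With unshared exon bases the mean of Itgam was 1844 ± 431 in PBS, above that of Itgb2, and 4954 ± 231 in pIpC, below it. The PBS order came from replicate 3 alone, and Itgam was below Itgb2 in replicates 1 and 2. There Itgb2 stood at 1.1 and 1.18 times the sum of its α genes, against 0.633 times in replicate 3.

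For each gene the tested genes with the most similar profile were found by the Euclidean distance between centred log2 values over the 6 libraries. The closest pair was Itgb1 with Spn, which encodes the leukocyte sialoprotein CD43 (distance 0.0636), followed by Bclaf1 (0.0793). Itga4 was nearest to Fancd2 (0.106) and Ash1l (0.128), Itga5 to Dus3l (0.107) and Ctc1 (0.11), and Itgam to Mgat4b (0.122) and Lmo4 (0.145). Itgb7 was nearest to Fbxl8 (0.133) and Chic2 (0.181), and Itga6 to Ptprc (0.151), which encodes the pan-leukocyte phosphatase CD45, and Ccdc82 (0.157). Itgb2 was nearest to Gpr157 (0.178) and B430306N03Rik (0.197). The genes with larger differences or lower counts had more distant neighbours, namely Itgal with Reck (0.306) and Nhsl1 (0.342), Itgax with Derl3 (0.272) and Gbp2 (0.434), and Itgae with AC154652.2 (0.448) and Gm37123 (0.464). No neighbour named was another of the 10 integrins.

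Outside the 10 genes, 16 further integrin subunits were listed, of which 11 were tested, 5 were higher, 2 were lower and 4 did not pass the test, beside 25.0% higher and 20.4% lower of all tested genes. Their median log2 difference was 0.81, and 2 of them (Itga2 and Itga8) had a mean of at least 10 in pIpC alone and 1 (Itgb4) in PBS alone. Itgad, the last α partner of Itgb2, had a normalized count of 17.3, 19.23 and 2.263 in PBS and 119.8, 135.9 and 224.3 in pIpC (log2 difference 3.86, SE 0.726, adjusted p = 0.00629, and 3.01 without PBS replicate 3). The platelet fibrinogen receptor was higher in both chains, with Itga2b at 396.3 ± 89.89 and 831.4 ± 136.8 (log2 difference 1.08, adjusted p = 0.00811) and Itgb3 at 948.1 ± 288.7 and 2007 ± 74.66 (1.12, adjusted p = 0.0065). The collagen receptor chains went in opposite directions. Itga2 was at 4.945 ± 3.656 in PBS and 49.45 ± 11.13 in pIpC (log2 difference 3.23, adjusted p = 0.00258, and 2.46 after quantile normalization), whereas Itga1 fell from 2318 ± 757.6 to 381 ± 71.02 (-2.56, adjusted p = 0.00057). Itgb5, a partner of the αv chain, fell from 1698 ± 319.2 to 163.1 ± 21.03, a PBS mean 10.4 times the pIpC mean (-3.36, adjusted p = 4.44e-05). Itga8 was at 6.169 ± 1.433 and 19.61 ± 7.925 (1.46, adjusted p = 0.0382), a call lost without pIpC replicate 2 (adjusted p = 0.132) or 3 (0.123) and after quantile normalization (0.308). The 4 not called were Itga9 (log2 difference 0.81), which passed without PBS replicate 2 (adjusted p = 0.0961), Itgav (0.18), Itga10 (-0.16) and Itgb4 (-0.81), which passed after quantile normalization (-1.84, adjusted p = 0.0298). Itga3, Itga7, Itga11, Itgb6 and Itgb8 were too low to be tested.

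Itgb2l, a β2-like gene known as Pactolus from maturing neutrophils of mouse marrow, was chosen after its values were seen. The PBS libraries held normalized counts of 126.3, 203.5 and 95.06 and the pIpC libraries 14317, 16550 and 16654 (chromosome 16, 96422288 to 96443619). It shares no 50-base word with another gene, Itgb2 included. The means were 141.6 ± 55.79 and 15840 ± 1320, a ratio of 112, with a log2 difference of 6.86 (SE 0.271, adjusted p = 1.77e-05). Per kilobase it took 1.46%, 2.43% and 1.44% of the sum of Itgb2 and Itgb2l in PBS and 33.8%, 34.3% and 34.7% in pIpC (difference 32.5 points, exact permutation p = 0.1).

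**Figure D3:**
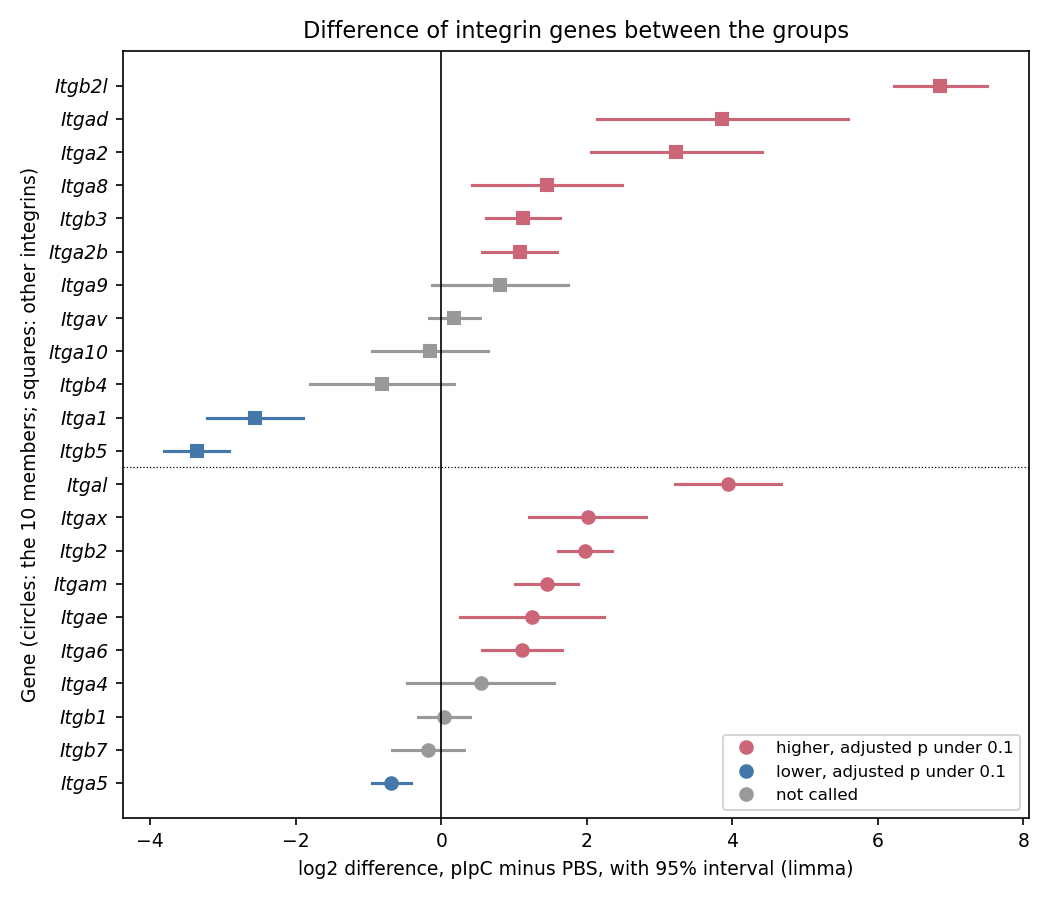
Log2 difference, pIpC minus PBS, of the 10 leukocyte integrins (circles) and of the other tested integrin genes with Itgb2l (squares), with the 95% interval from limma. Itgal is highest of the 10 at 3.94 and Itga5 lowest at -0.68, while Itgb2l at 6.86 and Itgb5 at -3.36 mark the ends among the others.

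The partners of these integrins were read from 5 lists. Of 22 ligands, 13 were tested, 7 were higher and 4 lower, with a median log2 difference of 2.03. All tested genes had a median of 0.015, with 25.0% higher and 20.4% lower. Of the 13 ligands, 2 passed the filter through pIpC alone. The matrix glycoprotein Thbs1 had the largest rise, from 66.89 ± 45.18 to 3453 ± 1226 (log2 difference 5.93, adjusted p = 0.000563, and 5.18 without PBS replicate 3). Icam2, a ligand of LFA-1, had the largest fall, from 2237 ± 747.4 to 553.8 ± 76.88 (-1.97, adjusted p = 0.00103). Further ligands, named after their values were seen, include some of those bound by the chains above. Icam1, bound by LFA-1 and Mac-1, fell from 287.5 ± 64.62 to 160.5 ± 3.765 (-0.81, adjusted p = 0.0244). Vcam1, bound by VLA-4 and also a macrophage marker, fell from 8421 ± 2115 to 4444 ± 602 (-0.90, adjusted p = 0.0197). C3, whose fragment iC3b is bound by Mac-1, rose from 10632 ± 2558 to 42476 ± 2481 (2.03, adjusted p = 0.000463). The fibronectin gene Fn1 fell from 798 ± 287.7 to 344.3 ± 191.6 (-1.27, adjusted p = 0.0629), with overlap between the groups. The E-cadherin gene Cdh1 rose from 18.29 ± 1.799 to 99.74 ± 11.48 (2.38, adjusted p = 0.0004). The laminin gene Lamc1 rose from 17.9 ± 8.65 to 88.71 ± 8.995 (2.38, adjusted p = 0.00563).

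Of 16 activators, which switch integrins to the binding state from inside the cell, 13 were tested, 5 were higher and 4 lower (median 0.52), beside 25.0% and 20.4% of all tested genes, and 1 (Tln2) was tested through PBS alone. The adaptor Fyb rose most, from 748.2 ± 222.1 to 1764 ± 166.6 (log2 difference 1.27, adjusted p = 0.00476), and Tln2, a talin little used in blood cells, fell most, from 235.9 ± 75.99 to 8.305 ± 0.7807 (-4.61, adjusted p = 9.66e-05). Tln1 and Fermt3, the activators with the highest means in PBS, were named after their values were seen and did not pass the test. The talin of leukocytes, Tln1, was at 17894 ± 7348 and 23854 ± 2187 (0.52, adjusted p = 0.285). The kindlin of blood cells, Fermt3, was at 9449 ± 1395 and 7917 ± 443.3 (-0.25, adjusted p = 0.236). Next by PBS mean came Rasgrp2 and Skap2, also named after their values were seen, and both were called lower. Rasgrp2 fell from 8644 ± 482 to 6762 ± 396.8 (-0.35, adjusted p = 0.0607) and Skap2 from 6352 ± 243.6 to 4428 ± 112.8 (-0.52, adjusted p = 0.0101). Rap1b, the GTPase upstream of talin, rose from 4912 ± 400.3 to 8002 ± 173 (0.71, adjusted p = 0.00405). Of 9 inhibitors, 3 were higher, 3 lower and 3 not called (median 0.06), again beside 25.0% higher and 20.4% lower of all tested genes. Dok2, which competes for the β tail, rose from 46.61 ± 11.84 to 642.2 ± 53.42 (3.78, adjusted p = 5.17e-05), and Rap1gap, which shuts off Rap1, fell from 295.3 ± 37.36 to 23.38 ± 11.49 (-3.73, adjusted p = 0.000628). The count of 6 inhibitors called was 3 without pIpC replicate 2, 4 without any other library except PBS replicate 3, and 9 without that one.

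Of 31 genes of the adhesion complex and its signalling, 28 were tested, and 19 were higher and 0 lower (median 0.89). The shares of all tested genes were 25.0% higher and 20.4% lower. Of the 19, 1 (Src) was tested through pIpC alone. At an unadjusted p under 0.05 the count lower was also 0 by limma, edgeR called 0 lower, DESeq2 called 1 lower, limma with no filter on low values called 1 lower, and limma called 2 lower without PBS replicate 3. The actin crosslinker Actn1 rose most, from 113.7 ± 47.49 to 7081 ± 586.6 (log2 difference 6.03, adjusted p = 2.85e-05). Others were named after their values were seen. The actin linker Vcl was at 791.5 ± 608.9 and 5578 ± 328.2 (3.48, adjusted p = 0.0254), with a wide spread in PBS, and its log2 difference was 2.29 without PBS replicate 3 and 4.13 without PBS replicate 2. Fgr, a Src-family kinase that acts behind β2 integrins in neutrophils, rose from 1219 ± 175.1 to 5143 ± 506 (2.08, adjusted p = 0.000106). Syk, a kinase downstream of it, rose from 3868 ± 999.2 to 7595 ± 382.9 (1.01, adjusted p = 0.00976).

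Of 12 membrane partners, which sit beside integrins in the membrane, 6 were higher and 2 lower (median 0.43). The shares of all tested genes were 25.0% higher and 20.4% lower. Of the 12, 1 (Cd226) was tested through pIpC alone. Cd226 had 3 reads or fewer in each PBS library and a mean of 45.96 ± 13.36 in pIpC, at least 15.3-fold higher than the floor of 3 reads in a library. The tetraspanin Cd37 fell most, from 7240 ± 1765 to 4866 ± 95.47 (log2 difference -0.55, adjusted p = 0.0562), a call lost without pIpC replicate 1 (adjusted p = 0.155), 2 (0.161) or 3 (0.147). The tetraspanin Cd9 rose from 470 ± 116.4 to 5001 ± 93.26 (3.44, adjusted p = 3.77e-05), and Plaur, the urokinase receptor that associates with Mac-1, rose from 846.6 ± 31.27 to 4984 ± 369.9 (2.55, adjusted p = 2.3e-05), both named after their values were seen.

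**Figure D4:**
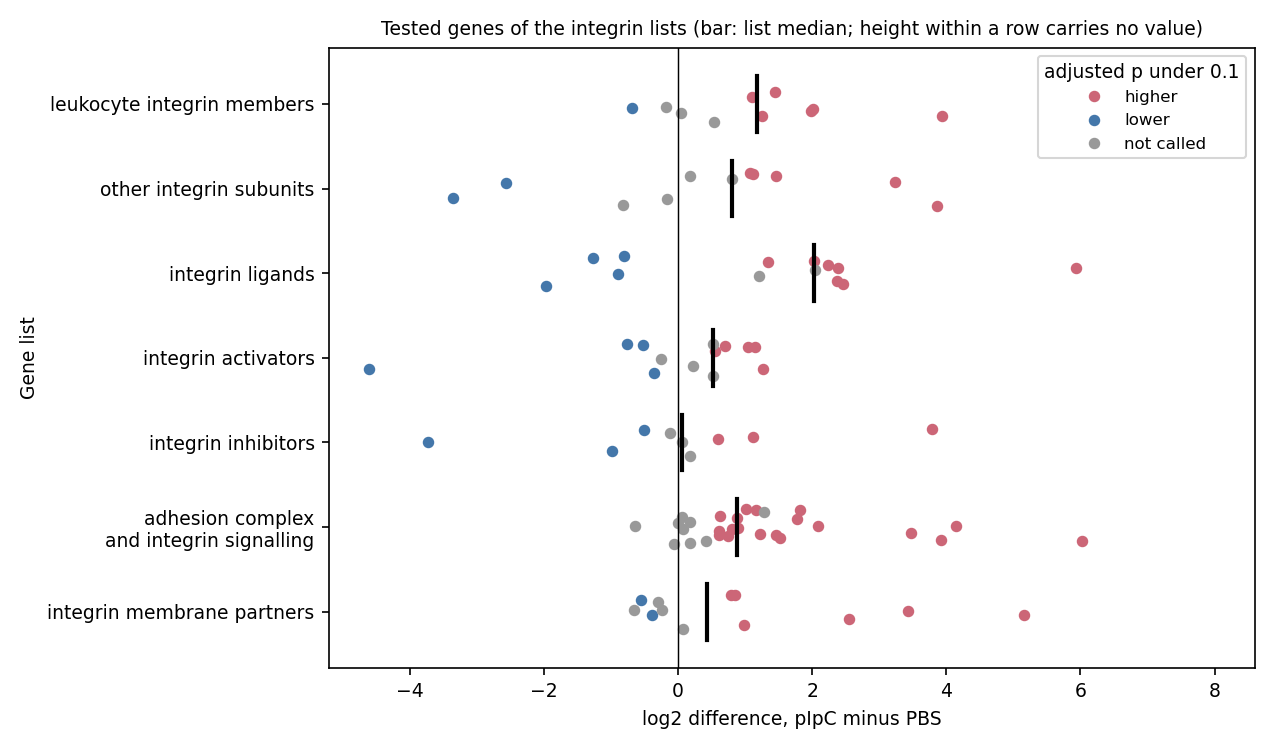
Log2 difference, pIpC minus PBS, of every tested gene in the integrin lists, 1 point per gene, coloured by the limma call at an adjusted p under 0.1, with a bar at each list's median. The bar lies at 1.18 for the 10 leukocyte integrins and at 0.06 for the inhibitors, and no gene of the adhesion complex list is called lower.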

How the data were processed

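RNA-seq of 3 PBS and 3 pIpC samples was analysed from 1 table that the authors deposited, of normalized counts (a signal: gene counts divided by 1 size factor per library) for 55487 genes, 55141 of them with a symbol. The submitters' notes name HISAT2 2.2.1, SAMtools, Subread, featureCounts, edgeR and GRCm38, whereas the study's methods name nf-core/rnaseq with STAR and RSEM. The labels describe poly(A)-selected, unstranded libraries and the methods stranded ones; if unstranded, opposite-strand genes cannot be told apart where exons overlap. All values (100%) were whole multiples of 1 read within 0.1 read, so reads could be recovered (19277439 to 23586722 per library), and the count tests below used them. Nothing says that the samples of a group came from separate donor leukemias, so p-values measure the spread between these samples, which may be technical.

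Genes averaging 10 or more normalized counts (15020) were tested with limma 3.58.1 under R 4.3.3, with its trend option, on log2 values after a pseudocount of 1 was added, a scale that understates the change of low genes. The call was a Benjamini-Hochberg adjusted p under 0.1 over all tested genes, and this is the adjusted p meant throughout. Shares and ratios within a library used counts per kilobase of merged exons (GENCODE M21, GRCm38) and exact 2-sided permutation tests, for which 3 against 3 cannot go below p = 0.1. At the floor means 3 reads or fewer in every library of a group, a limit that covers counting error only. Alternatives were pseudocounts of 0.1 and 10, quantile normalization, median-centring, a filter at a mean of 50 or none, a replicate block, no trend, edgeR 4.0.16 quasi-likelihood, DESeq2 1.42.0, an adjusted p under 0.05, other gene lengths (unshared exon bases were added after the data were seen) and each library left out in turn. Deviations from the group mean, compared between libraries of equal number, correlated at -0.117, 0.143 and 0.0405, so the numbers were not taken as pairs.

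The members and gene lists were chosen with earlier results of these data known. Named were the 10 members, every other tested integrin subunit, the largest rise and fall of each pathway list, the 2 nearest profiles of each member, and the sums and floor genes of each marker list. Some genes of these lists are not reported here by name. Others are said to be chosen after their values were seen. Tested on simulated data for this comparison (15020 genes, 200 of them shifted by a log2 value of 2), limma found 82% of the shifted genes, and genes without a shift made up 11.8% of its calls. The simulation shifted far fewer genes than the 6808 called in the data, so these rates need not hold for the data.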

Additional observations from a re-analysis of the deposited data

How the results depend on the processing

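Across 169 comparisons of a leukocyte integrin's log2 difference with an alternative setting, 160 kept direction and side of the threshold, 5 lost the call (each time Itgae) and 4 changed sign (Itgb1 and Itgb7, neither of them called). Sign changes were seen for Itgb1 after quantile normalization (-0.087), without PBS replicate 3 (-0.099) and without pIpC replicate 1 (-0.002), for Itgb7 without PBS replicate 3 (0.003), and for Itga10 without PBS replicate 2 (0.014). The share of Itgb7 was 1.01 points higher in pIpC without PBS replicate 3, and the share of Itgam differed by -12.5 points with unshared exon bases. Of 555 comparisons of other named genes, 545 kept their call, 7 lost it, 2 gained it and 1 changed sign. Rasgrp2, Skap2, Fn1, Cdh1 and Lamc1 were among the genes not included. Of 136 counts, 135 stayed within 1.5 times the reported one, the exception being inhibitors without pIpC replicate 2 (3).

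With each library left out, the count called ranged from 4650 (without pIpC replicate 2) to 9783 (without PBS replicate 3) for all genes, from 6 to 7 for the 10 leukocyte integrins, from 6 to 8 for other subunits, from 9 to 12 for ligands, from 8 to 11 for activators, from 3 to 9 for inhibitors, from 15 to 22 for the adhesion complex and from 6 to 11 for membrane partners. The log2 difference ranged from -0.099 to 0.114 for Itgb1, from -0.371 to 0.003 for Itgb7 and from -0.414 to 0.014 for Itga10, and the difference in share ranged from -28.8 to -23.2 points for Itgam, from -5.79 to 1.01 for Itgb7 and from 1.26 to 12.5 for Itga4. With a replicate block 6095 genes were called, 7 leukocyte integrins among them, and no call of these 10 changed (Itgae adjusted p = 0.0522). The cause of these changes was not tested. Itgae had 10 to 45 reads in a library, the fewest of the 10 genes.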
